A study of Homo sapiens with 2 samples.

Results

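The genes described here are the protein-coding genes of the distal short arm of human chromosome 12, in and next to band 12p13, from ERC1 to WBP11 in the order of their starts on GRCh38. The segment holds 187 protein-coding genes, of which 6 (FOXM1, NANOG, SLC2A3, GAPDH, TPI1 and WNT5B) are left out by the rule, so 181 are members. Of these, 147 have a probe set of their own, and 89 were measured, out of 19775 genes with a probe set and 12466 measured genes in the whole series. The segment was chosen by its signal ratios in these same samples, CD90+ over CD90-, so its ratios are given as a description, with no test.

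The samples are total RNA of KYSE-140 cells sorted by flow cytometry. KYSE-140 is a human cell line grown from a squamous carcinoma of the esophagus (ESCC). The CD90+ group is 1 sample of cells carrying the surface glycoprotein CD90, the product of THY1, and the CD90- group is 1 sample of cells that do not. Both groups share the line and the sort, the labels give no agent or genotype that separates them, and each was hybridised to 1 Affymetrix U133 Plus 2.0 array. With 1 array per group nothing measures the spread between sorts, the number of arrays limits the precision, and every fold below describes these 2 RNA samples. In a bulk sample, fewer cells of a type and less RNA per cell cannot be told apart.

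Signals are linear probe set intensities. A common floor of 71.6, the midpoint (geometric mean) of both arrays' medians, was set under dim signals. A gene counted as measured where its brightest probe set was at the floor or above it on 1 array or both. Where only 1 was, the fold is given as "at least". THY1 read 293 in CD90+ and 78.9 in CD90- cells, which follows the sort. Among squamous markers KRT5 read 19357 against 19208, SOX2 23329 against 27407 and E-cadherin (CDH1) 13150 against 11992, and 0 of the 6 with a probe set of their own differed by 2-fold. Of 8 fibroblast markers 2 were measured, and their list summed to 2411 in CD90+ and 1476 in CD90- cells. Of that list COL1A1 read 2125 against 1240, PDGFRA 107 on both arrays, and COL1A2, COL3A1, DCN, LUM, PDGFRB and FAP stayed under the floor. Among leukocyte markers CD53 alone of the 7 with a probe set reached the floor (109 against 70.7), and among 8 endothelial markers PECAM1 alone did (98.5 against 70.9). PTPRC, CD3E, CD14, LYZ and CDH5 were under the floor on both arrays.

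As background, 12p13 mixes kinds of genes that lie side by side. Broadly expressed genes for chromatin, RNA and metabolism alternate with clusters read in few tissues: the C-type lectin-like receptors of natural killer and myeloid cells, the bitter taste receptors and the salivary proline-rich proteins. The segment also holds receptors of the TNF family, the sodium channel subunit SCNN1A, the cell cycle inhibitor CDKN1B and the ETS factor ETV6.

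Most measured genes of the segment were slightly higher in CD90+ cells, and with the floor in place none was 2-fold lower. Their median log2 ratio, CD90+ over CD90-, was 0.31, a 1.24-fold difference, where the median of all 12466 measured genes was 0.01. Ratios were above 0 in 76 of 89 members (85.4%), where 51.2% of all measured genes were above 0. At least 1.5-fold higher were 23 members (25.8%), where 7.37% of all measured genes were, and 0 members were at least 1.5-fold lower, where 6.76% of all genes were. Of the 10 members with 1 array under the floor, 7 passed it through CD90+ and 3 through CD90- cells alone. This fixes their sign and makes their folds lower limits, also in the counts of lower members. Among the 79 at or above it on both arrays 69 (87.3%) had ratios above 0, with the same median of 0.31. The quartiles of the members' log2 ratios were 0.11 and 0.60. These shares come from the contrast by which the segment was chosen, so nothing is read from their distance to the background.

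Medians above 0 were seen at all signal levels, with the smallest spread across genes in the brightest. Among the 33 members with a mean signal of at least 16 times the floor, 32 had ratios above 0, with a median of 0.51 and an SD across genes of 0.27. The exception was FKBP4, a co-chaperone of steroid receptors, at 3224 against 3491, with its other probe sets up to a log2 ratio of 0.61. Of the 4707 genes of all chromosomes that were as bright, 2450 had ratios above 0, with a median of 0.01 and an SD across genes of 0.34. Members at 4 to 16 times the floor had a median of 0.23 (32 genes, 26 above 0, beside 1956 of 3916 among all genes as bright). Members under 4 times the floor had a median of 0.33 (24 genes, 18 above 0, beside 1978 of 3843) and a wider SD of 0.70.

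**Figure D1:**
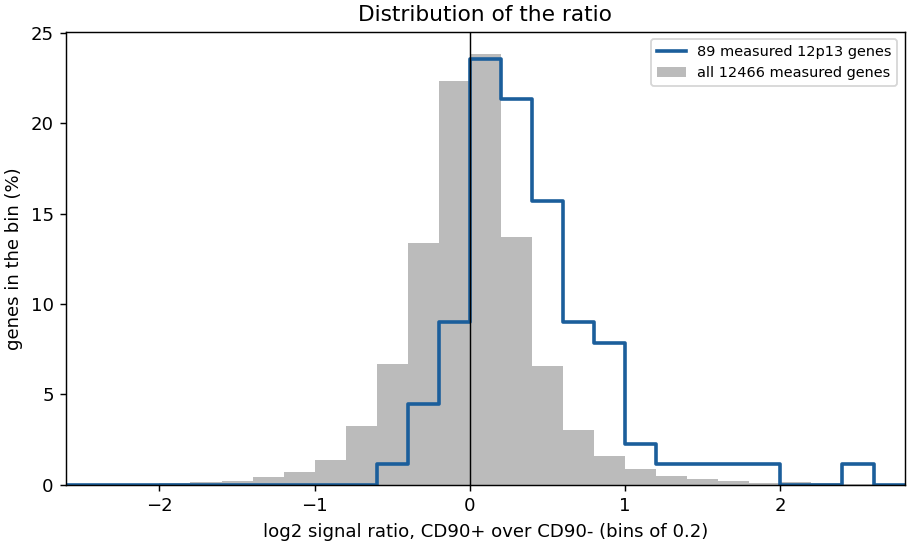
The share of genes (%) in bins of 0.2 of the log2 signal ratio, CD90+ over CD90-, for the 89 measured 12p13 genes (blue line) and all 12466 measured genes (grey bars). The blue line lies to the right of the grey bars, with medians of 0.31 and 0.01. The lowest 12p13 gene, STYK1, is just below -0.4, in the bin from -0.6 to -0.4.

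Most measured probe sets of the members lay above 0. The 147 members with a probe set had 286 between them, of which 148 were measured. Ratios above 0 were found in 125 of those (84.5%), where 51.2% of all measured genes, counted by gene, were above 0. Of the 38 members with several measured probe sets, 25 had all of them above 0, 2 had all below 0 and 11 had both signs. The pooled SD of log2 ratios within these 38 genes was 0.26, beside 0.31 within 6188 genes of the whole array. EMP1, a tetraspan membrane protein of epithelia, was above 0 on all 5 measured probe sets, from 0.25 to 0.90, the brightest reading 11825 against 6378. The end gene WBP11, a splicing factor, had 3 probe sets between 0.47 and 0.57. ITFG2, which encodes a subunit of the KICSTOR complex, was the member whose probe sets lay farthest apart: 2 read 1.23-fold and 1.30-fold, and the third 2.72-fold (199 against 73.3, the latter just above the floor).

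The genes outside both ends of the segment had mixed ratios, with medians like those of the lowest blocks of 10 members inside it (0.13 and 0.16). At the outer end ERC1, a scaffold of the presynaptic active zone and of cell cortex complexes, read 879 against 688, a log2 ratio of 0.35, and its 4 measured probe sets lay between 0.28 and 0.47. Its nearest measured neighbour outside, the recombination factor RAD52, read 233 against 236, a log2 ratio of -0.01. The 6 measured genes before ERC1 had a median of 0.13 and ranged from -0.67 to 0.58, the highest being the kinase WNK1 (2488 against 1666). KDM5A stood at 0.50 and CCDC77 at 0.23. SLC6A13 at 0.04 and B4GALNT3 at -0.67 each had 1 array under the floor. At the inner end WBP11 read 6045 against 4124, a log2 ratio of 0.55, and the next measured gene, C12orf60, read 371 against 307. The next 20 measured genes had a median of 0.16, ranged from -1.80 to 2.29 and had an SD of 0.83. The 549 measured genes of chromosome 12 outside the segment had a median of 0.07.

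Within the segment the local level of the ratio varied along gene order and stayed above 0. Every one of the 79 sliding medians over 11 consecutive measured members was above 0. The lowest, 0.11, was centred on the cyclin gene CCND2 and ran from TULP3 to DYRK4. The highest, 0.75, was centred on the Polycomb gene PHC1 and ran from FOXJ2 to CLEC7A. In that window FAM90A1, CLEC2B and CLEC7A passed the floor through CD90+ cells alone, so their ratios could only come out above 0. FGF6, in the lowest window, passed it through CD90- cells alone and could only come out below 0. The height of these windows is therefore partly set by the floor, and nothing is read from it. Over consecutive blocks of 10 the median was 0.32 from ERC1 to CRACR2A, 0.13 from PARP11 to CD9, 0.51 from PLEKHG6 to CHD4 and 0.24 from ACRBP to CDCA3. It was then 0.43 from USP5 to LPCAT3, 0.53 from C1S to MFAP5, 0.31 from RIMKLB to STYK1, 0.16 from YBX3 to GPR19 and 0.48 over the last 9 members, from CDKN1B to WBP11. In the block from C1S to MFAP5, C1S, C1R and FAM90A1 passed the floor through CD90+ cells alone. The low stretches around CCND2 and around YBX3 each held bright genes: CCND2 read 4316 against 3796, the mitochondrial complex I subunit NDUFA9 4955 against 4495, and the cold shock protein YBX3 22478 against 20198. None of these steps can be set against a spread between sorts.

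**Figure D2:**
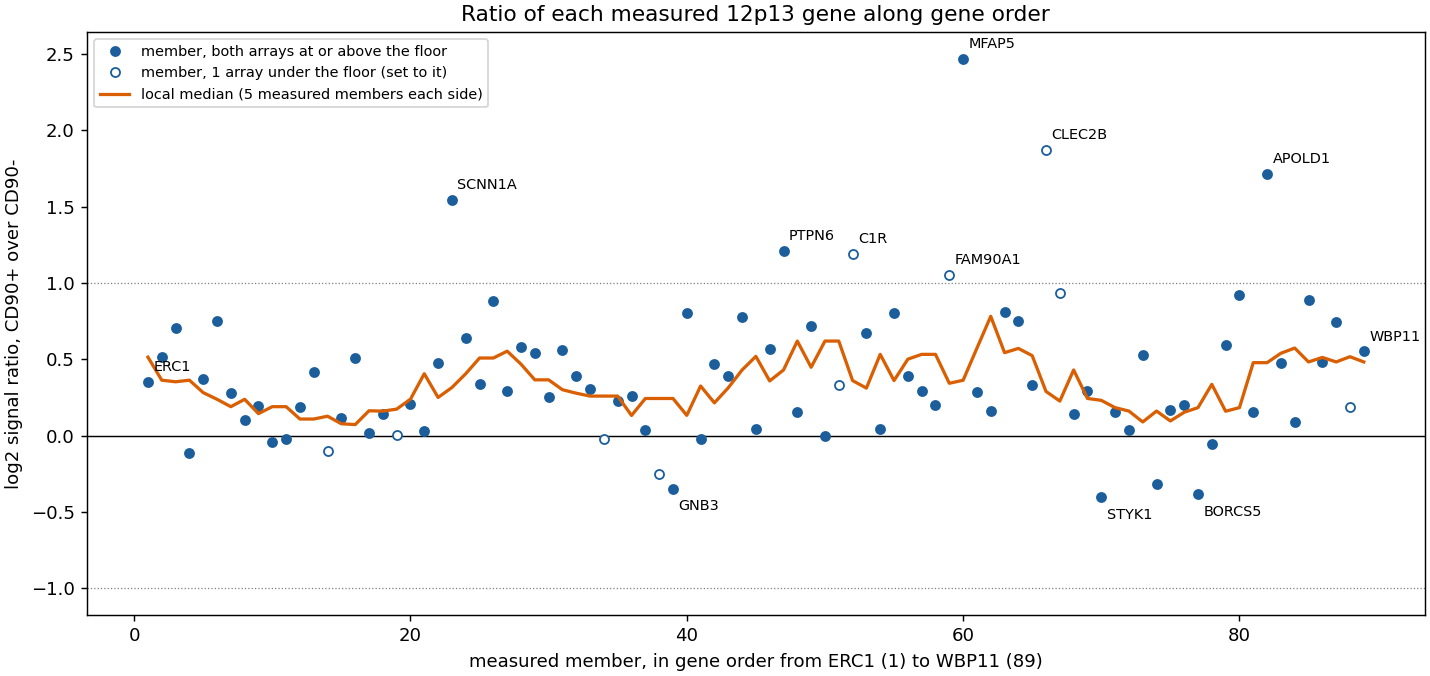
The log2 signal ratio, CD90+ over CD90-, of the 89 measured 12p13 genes in gene order, with the local median (orange line) over 5 measured members on each side of a gene. Filled points had both arrays at or above the floor and open points 1 array under it. MFAP5, CLEC2B, APOLD1 and SCNN1A stand at least 2-fold above the line, and 0 genes stand 2-fold below it.

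To find genes that depart from their neighbours, the median of the 5 measured members on either side was subtracted from each ratio. By this measure 4 of 89 members (4.49%) stood at least 2-fold above their neighbours, where 2.39% of the 11524 measured protein-coding genes on all chromosomes did so, and 0 stood at least 2-fold below, where 1.48% of all did. These 4 were MFAP5, CLEC2B, APOLD1 and SCNN1A, and they are also the 4 members with the highest ratios. None of the 4 stood 2-fold above its neighbours with the floor raised to 397, where SCNN1A departed by -0.15 and CLEC2B was not measured. Without any floor 21 members did, among them MFAP5, CLEC2B and APOLD1 but not SCNN1A, whose departure was then 0.99 (1.99-fold). The departures had an SD of 0.48 in the segment and 0.45 over all chromosomes.

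MFAP5, a microfibril-associated glycoprotein of the extracellular matrix that binds fibrillin and elastin, had the highest ratio of the segment. Its signal was 637 in CD90+ and 115 in CD90- cells (5.54-fold). Its neighbours had a local median of 0.36, which leaves a departure of 2.11 on the log2 scale, or 4.31-fold. Only the brightest of its 3 probe sets, one shared between transcripts, was measured. The others read 54.7 against 9.07 and 44.0 against 18.6, under the floor on both arrays. The nearest measured gene before it, FAM90A1, was also above 2-fold, and the gene after it, RIMKLB, read 614 against 504. MFAP5 is made by fibroblasts and other matrix-producing cells, the markers of which are given above. COL1A1 was higher in CD90+ cells while 6 of the 8 markers stayed under the floor, and their part in the MFAP5 value was not tested.

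CLEC2B, which encodes AICL, a C-type lectin-like ligand of the natural killer receptor NKp80, read 262 in CD90+ and 45.4 in CD90- cells. With the CD90- signal at the floor it was at least 3.66-fold higher, and its departure from a local median of 0.29 was 1.58. Its second probe set read 2.28 against 1.67, far below the floor. The nearest measured genes on either side, also lectin-like, gave smaller differences: CLEC2D, a ligand of the receptor KLRB1, read 105 against 83.3, and CLEC7A, the beta-glucan receptor dectin-1, read 137 against 49.4, at least 1.91-fold. Most leukocyte markers were under the floor on both arrays, and CD53 read 109 against 70.7. Whether leukocyte RNA takes part in the CLEC2B value was not tested.

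SCNN1A, the alpha subunit of the epithelial sodium channel, had a signal of 499 in CD90+ and of 171 in CD90- cells (2.92-fold), among neighbours with a local median of 0.32. Its departure was 1.23. The other 2 of its 3 probe sets were under the floor on both arrays (21.7 against 29.5 and 18.3 against 19.1), so the difference rests on 1 probe set. The genes on either side of it encode TNF receptors and were nearer to the level of the segment. TNFRSF1A, the main TNF receptor of epithelial cells, read 1134 against 816 (1.39-fold), and LTBR, the lymphotoxin beta receptor, 553 against 355 (1.56-fold).

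APOLD1, an apolipoprotein L domain protein best known as an early response gene of endothelial cells, gave signals of 606 in CD90+ and 185 in CD90- cells, 3.28-fold on its 1 probe set. Its departure from a local median of 0.48 was 1.24. CDKN1B, which encodes the cyclin-dependent kinase inhibitor p27 and lies just before it, read 4648 against 4183, or 1.11-fold. HEBP1, a heme-binding protein whose cleaved end attracts leukocytes, is the next measured gene and read 2347 against 1690, or 1.39-fold. Among endothelial markers PECAM1 read 98.5 against 70.9 and the 7 others were under the floor on both arrays. Their part in the APOLD1 value was not tested.

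Promoter sequences bear on APOLD1 because RefSeq gives it a pair of starts, 59742 bases apart, and the probe set cannot say which is used. The 250 bases before each start are shown, 5′ to 3′ on the + strand of GRCh38.p14, with those of CDKN1B, whose ratio stayed low. They lie at chr12:12725667-12725916 and chr12:12785409-12785658 for APOLD1 and at chr12:12717118-12717367 for CDKN1B. Capitals mark matches to the motifs searched on both strands: AP-1 (TGAGTCA, whose reverse complement is TGACTCA), ETS (CCGGAAG), the E-box CACGTG, SP/KLF (GGGCGGGG) and the TATA box TATAAA. No searched motif contains another.
APOLD1 first start: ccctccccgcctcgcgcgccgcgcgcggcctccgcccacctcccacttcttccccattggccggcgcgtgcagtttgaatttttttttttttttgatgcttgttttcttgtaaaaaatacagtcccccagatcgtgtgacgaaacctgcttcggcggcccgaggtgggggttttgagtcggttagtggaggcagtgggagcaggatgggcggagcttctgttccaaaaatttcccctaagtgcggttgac
APOLD1 second start: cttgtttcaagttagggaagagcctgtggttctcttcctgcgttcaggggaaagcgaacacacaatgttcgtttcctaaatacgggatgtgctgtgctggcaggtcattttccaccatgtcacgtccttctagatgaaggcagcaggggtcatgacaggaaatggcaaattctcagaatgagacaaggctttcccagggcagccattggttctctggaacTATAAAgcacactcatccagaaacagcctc
CDKN1B: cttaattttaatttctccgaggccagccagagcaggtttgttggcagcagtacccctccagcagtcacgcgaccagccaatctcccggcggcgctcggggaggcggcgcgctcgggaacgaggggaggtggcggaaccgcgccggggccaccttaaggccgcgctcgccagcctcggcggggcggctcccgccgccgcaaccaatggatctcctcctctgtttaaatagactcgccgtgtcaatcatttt
The stretch before the first APOLD1 start holds 20 CpG dinucleotides and none of the searched motifs, and that of CDKN1B 27 and none. The stretch before the second start holds 5 CpG dinucleotides and a TATA box, which 11.5% of the 35116 promoters in the RefSeq table have. A match is a run of letters and was not tested for use.

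Another 3 members were at least 2-fold higher but stood less than 2-fold above their neighbours. In all, 7 of 89 (7.87%) were at least 2-fold higher, where 2.47% of all measured genes were. With the floor in place 0 were at least 2-fold lower, where 1.75% of all were. PTPN6, the tyrosine phosphatase SHP-1, which dampens receptor signalling, read 211 against 91.4, or 2.31-fold. C1R, the first protease of the classical complement pathway, read 163 against 33.4, at least 2.28-fold. FAM90A1, of a multicopy gene family whose other copies its probe set may also read, gave 148 against 54.5, at least 2.07-fold. All of the 7 were dim in CD90- cells, APOLD1 being the brightest at 185. With the floor raised to 397, or with both arrays held to at least 4 times the floor, 0 members were 2-fold higher, and without probe sets shared between transcripts 3 were, since MFAP5, APOLD1, PTPN6 and C1R then had no measured probe set.

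C1R lies between 2 other protease genes of complement. C1S, its partner protease in the C1 complex, read 90.0 against 20.9, at least 1.26-fold, and C1RL, a C1R-like protease, 809 against 507, or 1.59-fold. C1RL had a second, dimmer probe set at 71.4 against 74.2, at the floor. C1R and C1S passed the floor through CD90+ cells alone, so their ratios could only come out above 0. C1R and C1S are also made by fibroblasts, of whose 8 markers COL1A1 read 2125 against 1240, PDGFRA 107 on both arrays, and the 6 others were under the floor. Their part in the complement values was not tested.

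PTPN6 has more than one start in RefSeq, as does C1R, and both starts of PTPN6 and the first listed of C1R are shown because these 2 genes and APOLD1 are the members 2-fold higher that the table holds. The stretches lie at chr12:6946327-6946576 and chr12:6951106-6951355 on the + strand for PTPN6, and at chr12:7092446-7092695 on the - strand for C1R, all GRCh38.p14 and printed 5′ to 3′ along the gene.
PTPN6 first start: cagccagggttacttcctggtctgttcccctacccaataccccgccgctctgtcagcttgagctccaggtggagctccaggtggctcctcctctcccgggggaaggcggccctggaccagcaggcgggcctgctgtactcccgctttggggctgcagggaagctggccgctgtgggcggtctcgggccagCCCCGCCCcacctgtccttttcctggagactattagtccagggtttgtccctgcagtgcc
PTPN6 second start: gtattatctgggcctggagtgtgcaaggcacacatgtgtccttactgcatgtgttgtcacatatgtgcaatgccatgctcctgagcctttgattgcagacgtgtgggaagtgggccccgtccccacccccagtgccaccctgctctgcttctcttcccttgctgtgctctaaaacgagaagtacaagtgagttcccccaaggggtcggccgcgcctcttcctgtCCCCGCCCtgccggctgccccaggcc
C1R: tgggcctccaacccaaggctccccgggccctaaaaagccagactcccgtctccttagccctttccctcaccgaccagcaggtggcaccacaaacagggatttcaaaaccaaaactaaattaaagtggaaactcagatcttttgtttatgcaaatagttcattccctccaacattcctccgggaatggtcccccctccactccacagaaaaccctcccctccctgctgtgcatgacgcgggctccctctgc
The capitals in both PTPN6 stretches are the SP/KLF motif read on the other strand, which 22.8% of all promoters in the table contain. The C1R stretch holds none of the searched motifs and 6 CpG dinucleotides, beside 10 and 8 in those of PTPN6.

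**Figure D3:**
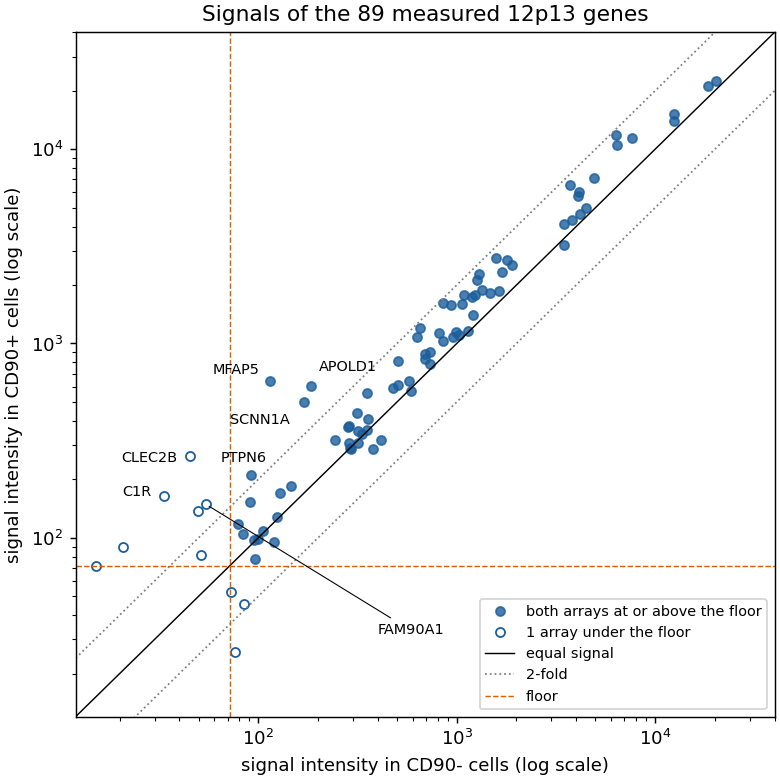
Signal intensities of the 89 measured 12p13 genes in CD90+ (vertical) against CD90- cells (horizontal), both on log scales, with the line of equal signal (solid), 2-fold lines (dotted) and the floor (dashed). Most points lie just above the solid line, and the 7 named genes, with CD90- signals of 33.4 to 185, lie above the upper 2-fold line. They stay above it with signals under the floor (open points) set to the floor, which the unnamed open points do not.

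The genes are described next by what they do, each group with its counts and median beside the median of 0.01 over all measured genes. For DNA repair and the cell cycle, all 10 members with a probe set were measured, 9 had ratios above 0, 0 were beyond 2-fold and the median was 0.41. CDCA3, a trigger of mitotic entry, read 6517 against 3732 (1.75-fold) and stood above a local median of 0.13 by 0.67, with a second probe set at 0.68. RHNO1, a clamp partner in the ATR checkpoint, read 2132 against 1264 (1.69-fold). NCAPD2, a condensin subunit, read 2675 against 1789 (a log2 ratio of 0.58), and RAD51AP1, an accessory factor of homologous recombination, 5777 against 4065 (1.42-fold). Nearer to equal were the G1 genes CCND2 and CDKN1B, a cyclin and an inhibitor, at 1.14-fold and 1.11-fold. PARP11, an ADP-ribosyltransferase, was the 1 member of the group below 0, at 287 against 291. In between lay TIGAR, a p53-induced regulator of glycolysis (1.33-fold), the tumour suppressor ING4 (1.31-fold) and MAGOHB (1.23-fold), a protein of the exon junction complex and so of RNA rather than the cell cycle, whose probe set may also read its near-identical paralog MAGOH and whose second probe set was at -0.22.

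The list of RNA, ribosome and translation had all 6 measured members above 0, with a median of 0.55 and 0 beyond 2-fold. RIMKLB (1.22-fold) and C12orf57 are on it but do not match its name. EMG1, a methyltransferase of ribosomal RNA, read 10514 against 6402 (1.64-fold), and NOP2, another such enzyme, 1743 against 1196 (1.46-fold). C12orf57 read 11386 against 7687 (1.48-fold). The mitochondrial ribosomal protein MRPL51 read 15230 against 12427 (1.23-fold). Its probe set is of the class prone to cross-hybridisation.

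The list of chromatin and transcription was nearer to 0, with 12 of 13 measured members above 0, 0 beyond 2-fold and a median of 0.19. The member below 0 was CRACR2A (308 against 317), which does not match the name of the list. The largest ratio was that of CREBL2, a bZIP protein, at 1602 against 1059 (1.51-fold). ATF7IP, a partner of the histone methyltransferase SETDB1, read 1882 against 1347 (1.40-fold). The remodeller CHD4, of the NuRD complex, read 4136 against 3464 (1.19-fold) on its brightest probe set and was higher on its other probe sets too, up to a log2 ratio of 0.62. The ETS repressor ETV6 read 1081 against 962 (1.12-fold), with its other 3 measured probe sets between 0.33 and 0.66. PHC1 read 643 against 576 (1.12-fold) and, in the stretch with the highest sliding median, lay 0.62 below its local median. That local median includes FAM90A1, CLEC2B and CLEC7A, which passed the floor through CD90+ cells alone and so could only raise it.

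The list of mitochondria, metabolism and trafficking had 11 of 13 measured members above 0, 0 beyond 2-fold and a median of 0.20. It held both high and near-equal genes, and also the co-chaperone FKBP4, which does not match its name. VAMP1, a vesicle fusion protein, read 1199 against 651 (1.84-fold), with its second measured probe set at 0.02. M6PR, the receptor that carries enzymes to lysosomes, read 2268 against 1294 (1.75-fold), PEX5, the peroxisomal import receptor, 2759 against 1580 (1.75-fold), and the neuronal enolase ENO2 1074 against 627 (1.71-fold). Near-equal genes included the prohibitin PHB2 at 13913 against 12499 (1.11-fold) and LPCAT3, a lysophospholipid acyltransferase, at 290 against 291, which lay 0.62 below its local median. The other measured probe set of LPCAT3 stood at 0.38.

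Surface receptors and adhesion genes were all above 0 in their 13 measured members, with a median of 0.34, 2 of them, SCNN1A and APOLD1, beyond 2-fold. GPR19, an orphan receptor, read 1606 against 849 (1.89-fold) and stood 0.74 above its local median. EMP1 was 1.85-fold higher. The tetraspanin CD9 read 21238 against 18398 (1.15-fold) and the Wnt co-receptor LRP6 1871 against 1630 (1.15-fold), on 3 probe sets that were all above 0. The secreted and matrix group had 6 of 7 measured members above 0, a median of 0.56, and 2 beyond 2-fold, MFAP5 and C1R. Its remaining measured members were those of complement, ITFG2, whose product acts inside the cell and does not match the name of the list, the acrosomal protein ACRBP (117 against 79.2) and FGF6, a growth factor of muscle, at 25.9 against 76.7, close to the floor on its brighter side.

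Signalling enzymes and ubiquitin or proteasome genes lay closest to 0 of the groups with at least 10 measured members. Of 10, 6 were above 0, PTPN6 alone was beyond 2-fold and the median was 0.03. Dim values weigh on this median: PTMS (109 against 106), USP5 (98.4 against 99.8) and GNB3 (94.7 against 121) were near the floor. PTMS, MLF2 and GNB3 are on the list but do not match its name. COPS7A, a subunit of the COP9 signalosome, read 1404 against 1202 (1.17-fold), MLF2 830 against 692 (1.20-fold) and the kinase DYRK4 1155 against 1143 (1.01-fold). STYK1, a kinase-like membrane protein, gave the lowest ratio of the segment with the floor in place. It read 288 against 380, a log2 ratio of -0.40, on 2 probe sets that were both below 0. The MAP kinase phosphatase DUSP16 read 569 against 590.

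**Figure D4:**
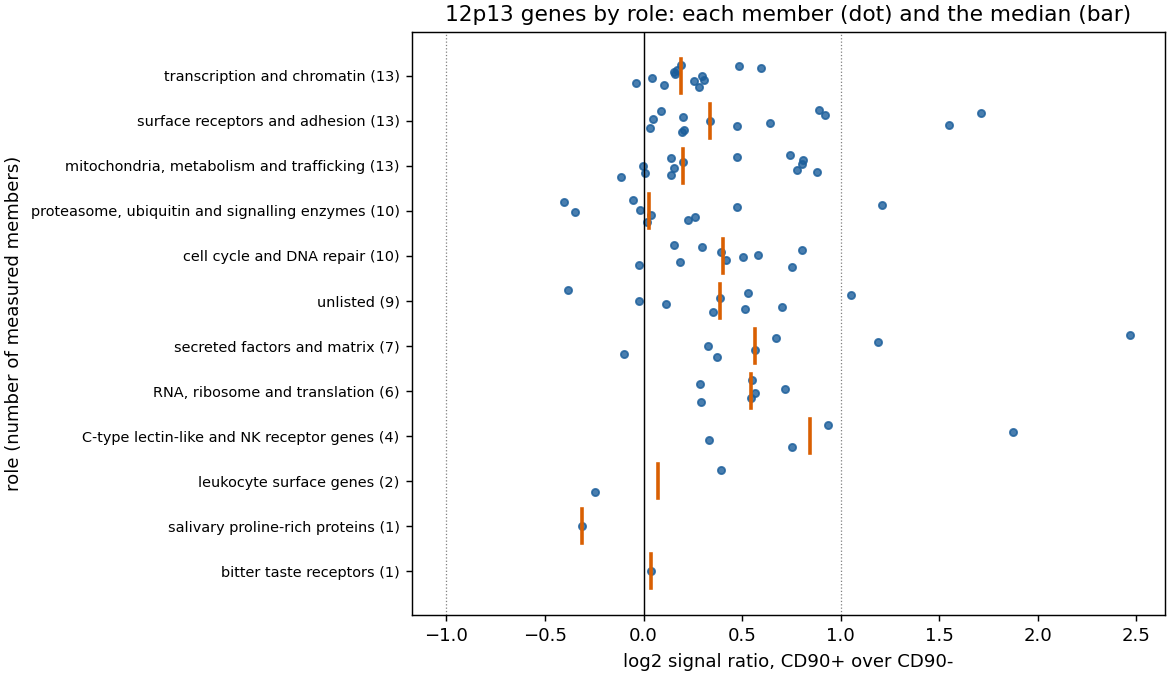
The log2 signal ratio, CD90+ over CD90-, of each measured 12p13 gene (dot) by role, with the median of the role (orange bar) and the number of measured members in parentheses. Bars lie to the right of 0 in all roles but that of the salivary proline-rich proteins, whose 1 measured gene is at -0.31.

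Members outside these roles, 22 in all with 9 measured, had 7 ratios above 0, a median of 0.39 and FAM90A1 alone beyond 2-fold. ADIPOR2, a receptor of the fat hormone adiponectin, read 1779 against 1092 (1.63-fold), and FBXL14, a substrate receptor of an SCF ubiquitin ligase, 1766 against 1237 (1.43-fold). SMIM10L1 read 7100 against 4924 (1.44-fold), with 3 probe sets between 0.53 and 0.73. All 3 ratios lay within the range of the cell cycle and repair genes.

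In all, 13 members had ratios below 0, and with the floor in place no value among them reached 1.5-fold. After STYK1 came BORCS5, which positions lysosomes, at 318 against 414, although its second probe set was above 0 (199 against 167). GNB3, a G protein beta subunit, read 94.7 against 121, and PRB3, a salivary proline-rich protein, 77.5 against 96.4, both near the floor. CD4, FGF6 and PIANP were under the floor in CD90+ cells and so were at least 1.19-fold, 1.07-fold and 1.02-fold lower. Whether they reach 1.5-fold is not known. Compared with their neighbours, STYK1, LPCAT3, PHC1 and GNB3 lay at least 1.5-fold below (4.49%, where 5.74% of all protein-coding genes did), by 0.63, 0.62, 0.62 and 0.59 on the log2 scale. The neighbours of STYK1, LPCAT3 and PHC1 include members that passed the floor through CD90+ cells alone. Those of GNB3 include CD4 and PIANP, which passed it through CD90- cells alone. Nothing is read from this share of lower members. On the other side 10 members (11.2%) lay at least 1.5-fold above, where 6.97% of all did. Those not yet named with a departure were C1R (0.83), PTPN6 (0.78), FAM90A1 (0.71) and CLEC7A (0.71). Of the members above, CLEC2B, C1R, FAM90A1 and CLEC7A passed the floor through CD90+ cells alone. Their ratios could only come out above 0, so nothing is read from this share.

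Which genes of the segment gave a signal at all does not use the ratio. Of the 147 members with a probe set 60.5% were measured, where 63.0% of all genes were, and the measured and unmeasured members, the latter under the floor on both arrays, fell largely into different roles. All 7 genes with a probe set on the list of voltage-gated and ligand-gated channels, which does not hold SCNN1A, among them the potassium channels KCNA1, KCNA5 and KCNA6 and the calcium channel CACNA1C, were under the floor on both arrays, as were the 3 alpha-2-macroglobulin genes A2M, A2ML1 and PZP. Only 4 of the 18 lectin-like and natural killer receptor genes with a probe set (CLEC2B, CLEC7A, KLRG1 and CLEC2D) were measured. Of the 8 bitter taste receptors TAS2R14 alone was (340 against 331), and of the 7 leukocyte surface genes CD163, a scavenger receptor of macrophages (169 against 129), and CD4 (45.8 against 85.1). GPRC5A, a receptor of many epithelia, was among the 58 unmeasured genes, with its brightest probe set at 46.2 against 6.40. Another 34 members had no probe set of their own on the array, and 25 probe sets that name a member together with another gene were not used.

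Measured and unmeasured members also differed in the base content of their promoters. RefSeq promoters (250 bases before to 50 after the first listed start, GRCh38.p14) were found for 126 of the 181 members, 65 of them measured and 35 with an unmeasured probe set. CpG dinucleotides reached at least 0.6 of the number that base composition predicts in 46 of the 65 measured members (70.8%) and in 6 of the 35 unmeasured ones (17.1%). Over all protein-coding genes with a probe set the shares were 82.7% of 9610 measured and 39.7% of 3846 unmeasured genes. A TATA box was found in 5 of the 65 measured (7.69%) and 12 of the 35 unmeasured members (34.3%), beside 5.82% and 14.4% over the measured and unmeasured protein-coding genes. An ETS motif was found in 13 of the 65 and 2 of the 35 (5.71%), near the shares of 19.1% and 5.69% over all measured and unmeasured genes. Of all 35116 RefSeq promoters 11.5% hold the TATA box and 10.3% the ETS motif. These are counts of letters in a short window and carry no test.

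Some neighbours start head to head, within 1000 bases of each other on opposite strands, with the stretches before their starts facing each other. There were 5 such pairs among the measured members with a promoter entry. The log2 ratios within them differed by a median of 0.39, beside 0.41 for all 88 pairs of adjacent measured members. M6PR and KLRG1, an inhibitory receptor of lymphocytes, were most alike, at 0.81 and 0.75 (KLRG1 read 152 against 90.3). FERRY3 and RAD51AP1 stood at 0.11 and 0.51, and MRPL51 and NCAPD2 at 0.29 and 0.58. CDCA3 and the deubiquitinase USP5 were least alike, at 0.80 and -0.02, although USP5 read only 98.4 against 99.8. PHB2 and EMG1, both bright, stood at 0.15 and 0.72.

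The promoters of PHB2 and EMG1 are shown because their genes share them but had unlike ratios: the 250 bases before EMG1 and the 250 before the first listed PHB2 start have 248 in common. They are printed along EMG1 (chr12:6970663-6970912, + strand). Those of M6PR (chr12:8949646-8949895, - strand) and KLRG1 (chr12:8949794-8950043, + strand) share 102 bases and are printed each along its own gene, all on GRCh38.p14 with the same motifs in capitals.
EMG1: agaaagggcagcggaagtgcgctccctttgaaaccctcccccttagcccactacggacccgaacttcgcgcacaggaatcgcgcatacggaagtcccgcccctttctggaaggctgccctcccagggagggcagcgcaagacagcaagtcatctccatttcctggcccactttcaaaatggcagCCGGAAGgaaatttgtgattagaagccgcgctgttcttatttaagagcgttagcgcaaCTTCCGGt
M6PR: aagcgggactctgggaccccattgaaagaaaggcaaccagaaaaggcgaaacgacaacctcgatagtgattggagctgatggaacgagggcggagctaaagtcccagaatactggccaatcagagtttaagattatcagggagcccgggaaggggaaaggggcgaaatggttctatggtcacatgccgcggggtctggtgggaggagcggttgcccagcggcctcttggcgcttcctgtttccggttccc
KLRG1: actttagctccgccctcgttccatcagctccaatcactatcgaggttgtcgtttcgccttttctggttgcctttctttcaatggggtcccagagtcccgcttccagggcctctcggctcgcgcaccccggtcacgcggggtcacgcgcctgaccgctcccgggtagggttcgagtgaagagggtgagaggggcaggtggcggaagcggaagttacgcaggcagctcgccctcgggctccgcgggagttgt
The EMG1 and PHB2 stretch holds 2 ETS motifs and 17 CpG dinucleotides, and the printed stretches of M6PR and KLRG1 hold none of the searched motifs. M6PR and KLRG1 each have a further start in RefSeq, and their probe sets do not tell which is used. The 250 bases before the further M6PR start (chr12:8949411-8949660, - strand) hold an E-box, which 7.26% of all promoters in the table contain. The 250 bases before the further KLRG1 start hold none of the searched motifs.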

How the data were processed

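The deposited table holds linear signal intensities of 54675 probe sets on 2 arrays, made by the authors with MAS5, per the submitters' processing notes. Its version and parameters are not stated in what was used here. The 2 to 98% trimmed mean was 500.1 on both arrays, so both deposited columns are on 1 scale. Because MAS5 corrects each probe by its mismatch partner, dim values are the least certain.

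Names of probe sets came from GEO's platform annotation and the RefSeq gene table of GRCh38.p14: 41097 had 1 symbol (41043 matched by identifier), 1801 several and 11777 none. Only those with 1 symbol were used. Controls (62) were left out of the floor, which is the 50th percentile. One probe set stood for a gene, that with the highest mean log2 signal, and the _x_at class only where a gene had no other. Ratios are log2, CD90+ over CD90-. With 1 array per group no test was made. Members were placed by GRCh38 start.

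Named genes are those beyond 2-fold in ratio or departure, the end genes, those whose probe sets span at least 1 on the log2 scale, and up to 4 of the brightest of each role. Others were named after their values were seen. The members and lists were chosen with earlier results of these data known. The procedure was tested on simulated data. Promoters were read from the RefSeq table, where overlapping entries on opposite strands matched in all 3088 cases. Python 3.11.15, numpy 2.4.6, pandas 2.3.3, statsmodels 0.14.6 and matplotlib 3.10.9 were used.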

Additional observations from a re-analysis of the deposited data

How the results depend on the processing

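The median log2 ratio of the segment stayed between 0.26 (the probe set with the smallest change) and 0.39 (the lower floor) under every alternative, and the sliding medians of 11 were above 0 in all windows except without a floor (96.4%). Counts beyond 2-fold depend on dim genes. Higher members, 7 in the main setting, numbered 28 without a floor, 21 with a lower floor (17.2, the 25th percentile), 0 with a higher one (397, the 75th), 3 without probe sets shared between transcripts, 4 with both arrays at or above the floor, and 0 with both at least 4 times the floor, an alternative added after the data were seen. Lower members, 0 in the main setting, numbered 9 without a floor and 3 with the lower one. Members 2-fold above their neighbours, 4 in the main setting, numbered 21, 12, 0 and 2 without a floor, with the lower floor, with the higher floor and without shared probe sets, and 0 with both arrays at least 4 times the floor. Those 2-fold below numbered 12 without a floor and 4 with the lower one. Measured members numbered 147 without a floor and 56 with the higher one. With the higher floor SCNN1A lay below its neighbours (departure -0.15), MFAP5 was 1.61-fold and APOLD1 1.53-fold higher, and CLEC2B was not measured. Without a floor SCNN1A also fell just short of a 2-fold departure (0.99). Of 914 values of 42 named members under the alternatives, 860 stayed within the spread of probe sets. No paired analysis was possible because each group has 1 sample. The 2 RNA samples give no spread between sorts.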
